A study of Mus musculus with 49 samples.

Results

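Per1, Per2, Per3, Cry1, Cry2 and Ciart, 6 of the 39179 genes in the count table of the study, encode the repressor arm of the circadian clock. They were found by their gene symbols, and the set was chosen on measured values. Earlier results of these data on 2 comparisons, anti-PD-1 alone against vehicle and the combination against anti-PD-1 alone, were known when the set was put together. Both comparisons are therefore given below as descriptions, and nothing is read from which genes passed a limit in them. The samples were 49 tumours of CT26, a mouse colon carcinoma line, grown in BALB/c mice. From day 7 after injection of the cells, mice received 1 of 4 treatments for 7 days. The 9 vehicle tumours came from mice given the DMSO and PEG carrier alone. The 7 celecoxib tumours had daily doses of 30 mg/kg of celecoxib, an inhibitor of the prostaglandin-making enzyme cyclooxygenase-2. The 17 anti-PD-1 tumours had 2 doses of 200 µg of an antibody against the T cell checkpoint receptor PD-1. The 16 tumours of the combination had both drugs. A response entry of R or NR, with no definition, accompanies each tumour. It is NR throughout the vehicle and celecoxib groups, R for 4 and NR for 13 tumours given anti-PD-1, and R for 12 and NR for 4 given the combination. The tissue label places collection at day 7 after treatment, whereas the extraction protocol names day 4, and neither gives an hour of the day. The model is 1 cell line, and nothing in the labels says that each tumour came from a different mouse. The p-values therefore set differences against the spread among these samples, which may be technical in part, and may not extend to independent mice.

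In the mammalian clock, the activators CLOCK and BMAL1 (encoded by Arntl) bind E-box elements and switch on the Per and Cry genes. The PER and CRY proteins enter the nucleus together and block CLOCK and BMAL1, so that their own transcription falls again, and CIART, also called CHRONO, is a further repressor of the same activators. D-box elements, bound by the activators DBP, TEF and HLF and the repressor NFIL3, give a later input to Per genes, and Per1 is also an immediate target of glucocorticoid and cAMP signalling. The level of each transcript in a tissue therefore depends on the hour at which it is taken as well as on hormones and feeding.

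These inputs act on promoter elements, so the 4 windows that hold an E-box or a D-box are shown. RefSeq windows on GRCm38.p6, from 250 bases before to 50 bases after an annotated start, were present for 5 of the 6 genes, with 2 windows for Per1. Each window was searched on both strands for the E-box CACGTG, the related E-prime box CACGTT, the D-box TTATGTAA and the cAMP response element TGACGTCA, and no 2 matches overlapped. In the lines below capitals mark the matches, and each sequence runs 5′ to 3′ on the strand of its gene: Per1 at chr11:69098699-69098998 (+), Per3 at chr4:151044616-151044915 (-), Cry1 at chr10:85185005-85185304 (-) and Ciart at chr3:95882179-95882478 (-).
Per1: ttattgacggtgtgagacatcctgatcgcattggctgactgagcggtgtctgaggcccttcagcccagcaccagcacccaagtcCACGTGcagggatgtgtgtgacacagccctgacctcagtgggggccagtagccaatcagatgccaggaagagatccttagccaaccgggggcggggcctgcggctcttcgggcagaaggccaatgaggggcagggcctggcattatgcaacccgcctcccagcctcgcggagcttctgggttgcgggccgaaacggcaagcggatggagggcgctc
Per3: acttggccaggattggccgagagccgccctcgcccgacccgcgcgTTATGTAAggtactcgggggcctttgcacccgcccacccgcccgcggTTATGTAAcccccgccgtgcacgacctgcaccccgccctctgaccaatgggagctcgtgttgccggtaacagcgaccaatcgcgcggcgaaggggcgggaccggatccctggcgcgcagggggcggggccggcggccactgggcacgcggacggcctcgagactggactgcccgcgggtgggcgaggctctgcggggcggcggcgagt
Cry1: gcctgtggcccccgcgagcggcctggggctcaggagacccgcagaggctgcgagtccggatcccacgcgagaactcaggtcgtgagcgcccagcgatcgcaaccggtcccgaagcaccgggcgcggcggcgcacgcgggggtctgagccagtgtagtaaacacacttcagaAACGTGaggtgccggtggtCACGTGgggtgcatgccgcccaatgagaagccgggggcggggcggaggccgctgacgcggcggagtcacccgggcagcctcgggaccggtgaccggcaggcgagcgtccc
Ciart: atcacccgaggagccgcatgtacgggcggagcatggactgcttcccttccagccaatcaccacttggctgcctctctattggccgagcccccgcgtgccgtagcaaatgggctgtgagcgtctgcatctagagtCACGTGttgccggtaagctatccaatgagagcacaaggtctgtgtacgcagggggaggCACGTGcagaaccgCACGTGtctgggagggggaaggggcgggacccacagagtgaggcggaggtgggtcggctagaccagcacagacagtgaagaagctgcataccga

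Ciart held 3 E-boxes, which begin at -116, -58 and -44 from the start site. Of 32851 RefSeq windows of the same length, 7.15% held at least 1 E-box and 0.0883% held 3 or more. The Per1 window had 1 E-box at -166, and its second window, around a start site further downstream, had none of the 4 motifs. Cry1 carried an E-box at -60 and, on the opposite strand, an E-prime box at -79, where the printed strand reads AACGTG. Cry2 had only an E-prime box, at -166, an element found in 4.68% of windows. Per3 held 2 D-boxes, at -205 and -158, and no E-box. A D-box was present in 0.938% of windows and 2 or more in 0.0213%. The cAMP response element, in 1.79% of all windows, had no exact match in the 6 windows. These are letter matches in short windows and describe neither binding nor a cause of any difference below.

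Counts came from QuantSeq 3′ libraries, in which each transcript gives about 1 tag near its polyadenylated end, so isoforms of a gene are not told apart. Library totals ran from 4251251 to 13671294 counts, with a median of 7670623. Levels are CPM, counts scaled to a common library size with the TMM method of edgeR. All 6 genes had counts in all 49 libraries, the lowest being 13 counts of Ciart, and all 6 passed the filter on low counts that left 13726 genes. In GENCODE M21 on GRCm38, Per1 lies at chromosome 11, 69095217 to 69109960 (+), Per2 at chromosome 1, 91415982 to 91459324 (-), and Per3 at chromosome 4, 151003652 to 151044665 (-). Cry1 lies at chromosome 10, 85131700 to 85185064 (-), Cry2 at chromosome 2, 92403646 to 92434043 (-), and Ciart at chromosome 3, 95878503 to 95882251 (-). Cry2 shares 295 exonic bases with D930015M05Rik on the opposite strand, and no source used here states whether strand was used in counting, so reads of those 2 genes may not be fully separated.

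The tumours were mixed tissue. Means over lists of marker genes (log2 CPM) ranged from -0.68 to 7.89 for skeletal muscle, with 14 libraries above the limits set for muscle, skin or adipocyte tissue. Epithelial keratin and adhesion markers, the nearest check of a carcinoma, were low: 4 of 5 passed the filter, Krt18 had a mean of 14.5 CPM, and Epcam had counts in 31 of 49 libraries. Proliferation markers had a mean of 7.20 log2 CPM. In addition, 3 libraries stood apart by a low mean over 8 macrophage markers: vehicle replicate 8 at 5.44, anti-PD-1 replicate 14 (R) at 5.71 and combination replicate 15 (R) at 5.52 log2 CPM, against 6.25 to 8.80 in the other 46. Their T cell marker means were 0.64, -1.17 and -0.48, against 0.22 to 4.81 elsewhere, so that the vehicle tumour was within the range of the others for this list. Their endothelium marker means were 2.08, 3.30 and 2.82, below the 3.33 to 4.96 of the other 46. The 3 tumours were thus low in more than macrophage markers, although they are named by that list below. Since these tumours also held the highest level of several of the 6 genes, results are given with and without them where they bear on a value. In bulk RNA, fewer cells of a type and less RNA per cell cannot be told apart.

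Per2, a core Period gene needed for stable rhythms, had its lowest levels under anti-PD-1 alone. The 9 vehicle tumours ranged from 40.7 to 117 CPM with a median of 54.9 CPM, and the 7 celecoxib tumours from 45.3 to 106 CPM with a median of 58.7 CPM. Under anti-PD-1 alone the range was 7.68 to 43.1 CPM and the median 18.8 CPM. The combination spanned 16.7 to 103 CPM around a median of 50.99 CPM. All 17 anti-PD-1 tumours lay below the lowest celecoxib tumour, and 16 of 17 lay below the lowest vehicle tumour. The exception, at 43.1 CPM, was replicate 14, one of the 3 tumours low in macrophage markers. Without it the highest anti-PD-1 tumour was at 29.5 CPM. In the combination 11 of 16 tumours exceeded every anti-PD-1 tumour.

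Per3, a Period gene that follows the clock strongly in peripheral tissues but is not needed to keep it running, also had its lowest levels under anti-PD-1 alone. Vehicle tumours lay between 60.1 and 151 CPM (median 91.6 CPM) and celecoxib tumours between 67.2 and 92.8 CPM (median 81.7 CPM). Anti-PD-1 tumours lay between 19.7 and 58.7 CPM (median 32.5 CPM), so none of the 17 overlapped any of the 9 vehicle or 7 celecoxib tumours. Of 13726 genes, 0.0219% had every anti-PD-1 tumour below every vehicle tumour, and 0.0219% had every anti-PD-1 tumour below every celecoxib tumour. Per3 was among the former and Per2 and Per3 among the latter, but the members were chosen on the first of these contrasts and the second shares its anti-PD-1 tumours, so nothing is read from these counts. Combination tumours spread from 36.4 to 137 CPM (median 59.8 CPM), with 8 of 16 below the lowest vehicle tumour and 8 of 16 above the highest anti-PD-1 tumour. The SD of the combination group was 27.7 CPM, against 8.29 CPM under celecoxib, where the tumours lay close together.

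Per1, the Period gene induced directly by glucocorticoids and cAMP, overlapped between every pair of treatments. Its vehicle range was 12.9 to 81.4 CPM with a median of 45.5 CPM, and its celecoxib range 18.4 to 61.5 CPM with a median of 38.5 CPM. Anti-PD-1 tumours reached from 3.77 to 57.5 CPM with a median of 19.9 CPM, and 4 of 17 fell below the lowest vehicle tumour. Combination tumours lay between 20.02 and 61.2 CPM with a median of 35.5 CPM. All 16 combination tumours were above the anti-PD-1 median, yet the ranges overlapped. The coefficient of variation was 62.5% under anti-PD-1 and 33.1% in the combination.

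Cry1 and Cry2, the cryptochromes that repress CLOCK and BMAL1, had their lowest medians under anti-PD-1 alone. Cry1 had 13.9 to 37.3 CPM in vehicle tumours (median 23.01 CPM), 13.2 to 31.998 CPM with celecoxib (median 23.4 CPM), 5.08 to 20.98 CPM with anti-PD-1 (median 13.1 CPM) and 7.77 to 37.0 CPM in the combination (median 15.9 CPM). All 17 anti-PD-1 tumours were below the vehicle median of Cry1, and 9 of them below the lowest vehicle tumour. Cry2 had 16.5 to 55.3 CPM with vehicle (median 33.2 CPM), 18.6 to 31.5 CPM with celecoxib (median 30.0 CPM), 11.3 to 36.6 CPM with anti-PD-1 (median 16.5 CPM) and 11.9 to 49.8 CPM in the combination (median 21.2 CPM). For Cry2, 16 of 17 anti-PD-1 tumours were below the vehicle median, the exception being replicate 14 at 36.6 CPM. Both cryptochromes overlapped between every pair of treatments.

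The group means of Ciart, the further repressor of CLOCK and BMAL1, rested in part on single tumours. Its vehicle range was 4.12 to 36.4 CPM (median 8.15 CPM), its celecoxib range 4.06 to 13.7 CPM (median 8.81 CPM), its anti-PD-1 range 1.46 to 37.7 CPM (median 3.39 CPM) and its combination range 2.54 to 24.7 CPM (median 8.50 CPM). The highest value in each of the 3 groups other than celecoxib belonged to the tumour low in macrophage markers. Without those tumours the highest values were 16.2 CPM with vehicle, 13.6 CPM with anti-PD-1 and 12.9 CPM in the combination. The group means were then 8.03 ± 3.70 CPM (SD, n = 8), 4.61 ± 3.39 CPM (SD, n = 16) and 7.86 ± 3.98 CPM (SD, n = 15), from 11.2 ± 10.1 (n = 9), 6.56 ± 8.66 (n = 17) and 8.91 ± 5.70 CPM (n = 16).

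**Figure D1:**
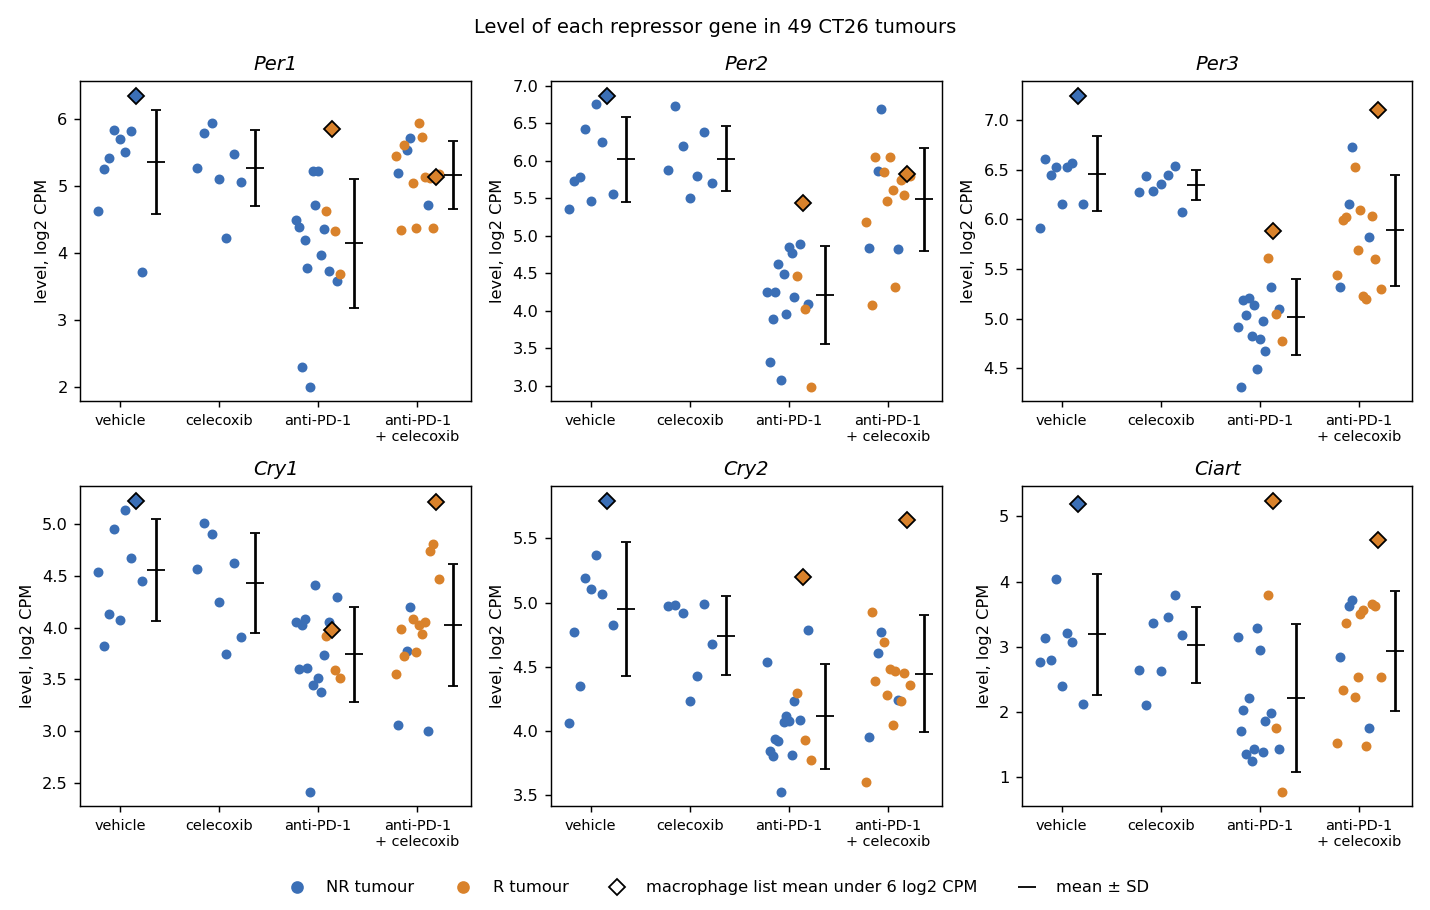
Levels of the 6 repressor genes on a log2 CPM axis, 1 point per tumour, by treatment, with R and NR tumours in different colours and the group mean ± SD in black to the right of each group. Diamonds mark the 3 tumours with a macrophage list mean under 6 log2 CPM, which hold the highest Ciart value of their groups, and all Per3 points under anti-PD-1 lie below all vehicle and celecoxib points.

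The question of the celecoxib comparison is whether the cyclooxygenase inhibitor alone changed the repressors. No difference was detected for any of the 6 genes between 7 celecoxib and 9 vehicle tumours. The same vehicle tumours had entered a contrast known when the members were chosen. The log2 fold changes were -0.04 for Per2 (SE 0.29, 95% interval -0.62 to 0.54) and -0.16 for Per3 (SE 0.22, -0.58 to 0.27). Per1 differed by -0.16 (-0.84 to 0.52), Cry1 by -0.14 (-0.63 to 0.35), Cry2 by -0.26 (-0.70 to 0.17) and Ciart by -0.40 (-1.43 to 0.64). In the edgeR quasi-likelihood test with Benjamini-Hochberg adjustment over 13726 genes, 0 members passed an adjusted p of 0.05, 0 had an unadjusted p under 0.05, and 0% of all genes were called, although 314 genes had an unadjusted p below that value. DESeq2 called 0 members and 7 genes. Without vehicle replicate 8, Per2 (0.09) and Ciart (0.09) took the other sign, and Per1 (-0.0035), Per3 (-0.02), Cry1 (-0.03) and Cry2 (-0.12) came closer to 0. Per2 also took the other sign without any 1 of 5 other libraries, vehicle replicates 4 and 6 and celecoxib replicates 4, 5 and 7, with values up to 0.08. The intervals still allow differences of more than 0.5 on the log2 scale in either direction for Per1 and Per2, so the test does not show that the groups were alike.

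Anti-PD-1 alone against vehicle is the contrast on which the members were chosen, and its values are a description. All 6 fold changes were negative: -1.79 for Per2 (SE 0.24), -1.45 for Per3 (SE 0.17), -1.11 for Per1 (SE 0.28), -0.86 for Cry2 (SE 0.18), -0.84 for Cry1 (SE 0.20) and -0.78 for Ciart (SE 0.42). The members' median was -0.99, beside 0.01 over all genes tested. Past the adjusted limit were 3 members, Per2, Per3 and Cry2, where 0.0874% of all genes were called, and nothing is read from that count. Cry2 was no longer past the limit without vehicle replicate 8 (-0.73) or vehicle replicate 6 (-0.81). Per1 was at -1.23 without vehicle replicate 9 and -1.27 without anti-PD-1 replicate 14, and Cry1 at -0.91 without vehicle replicate 2. Ciart ranged from -1.28 without anti-PD-1 replicate 14 to -0.31 without vehicle replicate 8. When all 3 tumours low in macrophage markers were left out, the values were -1.77 for Per2, -1.39 for Per3, -1.12 for Per1, -0.83 for Cry2, -0.75 for Cry1 and -0.81 for Ciart.

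For the combination against anti-PD-1 the fold changes of all 6 genes were positive, again as a description. The log2 fold changes were 1.29 for Per2 (SE 0.21), 0.94 for Per3 (SE 0.15), 0.83 for Per1 (SE 0.24), 0.45 for Ciart (SE 0.37), 0.35 for Cry2 (SE 0.15) and 0.34 for Cry1 (SE 0.17). The median was 0.64, beside 0.00 over all genes tested. Per2 and Per3 were past the limit, 2 of 6, where 0.503% of all genes were called, and nothing is read from that count either. Per1 was at 0.99 without anti-PD-1 replicate 14, 0.88 without combination replicate 3 and 0.84 without combination replicate 15. Without the 3 tumours low in macrophage markers Per1 was at 1.004 and Ciart at 0.77. The comparison shares its anti-PD-1 tumours with the one before it, so the opposite signs of the 2 sets of values are not independent of each other.

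How close the combination came to vehicle was tested directly. Both groups of tumours had also entered contrasts known when the members were chosen. Nothing is therefore read from which genes passed a limit in this comparison, in all libraries or with libraries left out. Per3 was at 63.6 ± 27.7 CPM (SD, n = 16) in the combination and 90.6 ± 26.2 CPM (n = 9) with vehicle, or 83.004 ± 13.7 CPM (n = 8) without vehicle replicate 8, and Per2 at 48.96 ± 21.2 and 69.4 ± 28.5 CPM. All 6 fold changes were negative, at -0.51 for Per3 (SE 0.18, adjusted p 0.185), -0.51 for Cry2 (SE 0.18, adjusted p 0.194), -0.50 for Per2 (SE 0.24, adjusted p 0.307), -0.49 for Cry1 (SE 0.20, adjusted p 0.238), -0.33 for Ciart (SE 0.43) and -0.28 for Per1 (SE 0.28). In the edgeR quasi-likelihood test 0 members were called, where 0.0729% of all genes were. An unadjusted p under 0.05 was reached by 4 members, Per2, Per3, Cry1 and Cry2, as by 2110 of the 13726 genes, and DESeq2 called 0 members and 67 genes. The call depended on which library was left out. Without combination replicate 15, 1 of the 3 tumours low in macrophage markers, Per3 (-0.62, adjusted p 0.0473) and Cry2 (-0.63, adjusted p 0.0490) passed. Muscle markers of that tumour were at 7.09 log2 CPM. Without vehicle replicate 8, also 1 of the 3, edgeR gave -0.38 for Per3 (adjusted p 0.358) and -0.38 for Cry2 (adjusted p 0.382). Per3 alone passed, at -0.63, when the 14 libraries with other tissue were left out. Without the 3 tumours low in macrophage markers 0 passed, with -0.49 for Per3 (adjusted p 0.130) and -0.50 for Cry2 (adjusted p 0.133), and the values nearest 0 were -0.12 for Per1 and -0.03 for Ciart.

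The effect of the antibody in mice that all had celecoxib was likewise not detected. The comparison shares its combination tumours with a contrast known when the members were chosen. Combination against celecoxib gave -0.46 for Per2 (95% interval -0.98 to 0.05), -0.36 for Cry1 (-0.79 to 0.08) and -0.35 for Per3 (-0.73 to 0.02). Cry2 differed by -0.25 (-0.64 to 0.14), Per1 by -0.11 (-0.72 to 0.49) and Ciart by 0.06 (-0.868 to 0.998). With edgeR 0 members were called and 0 had an unadjusted p under 0.05, 0.0364% of all genes were called, and DESeq2 called 0 members and 2 genes. For Per3, whose celecoxib values were close together, 11 of 16 combination tumours were below the lowest celecoxib tumour and 2 were above the highest. Such counts were not made over all genes, so nothing is read from them. Without the 3 tumours low in macrophage markers Per3 differed by -0.47 (adjusted p 0.505 in edgeR's quasi-likelihood test) and Ciart by -0.12.

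**Figure D2:**
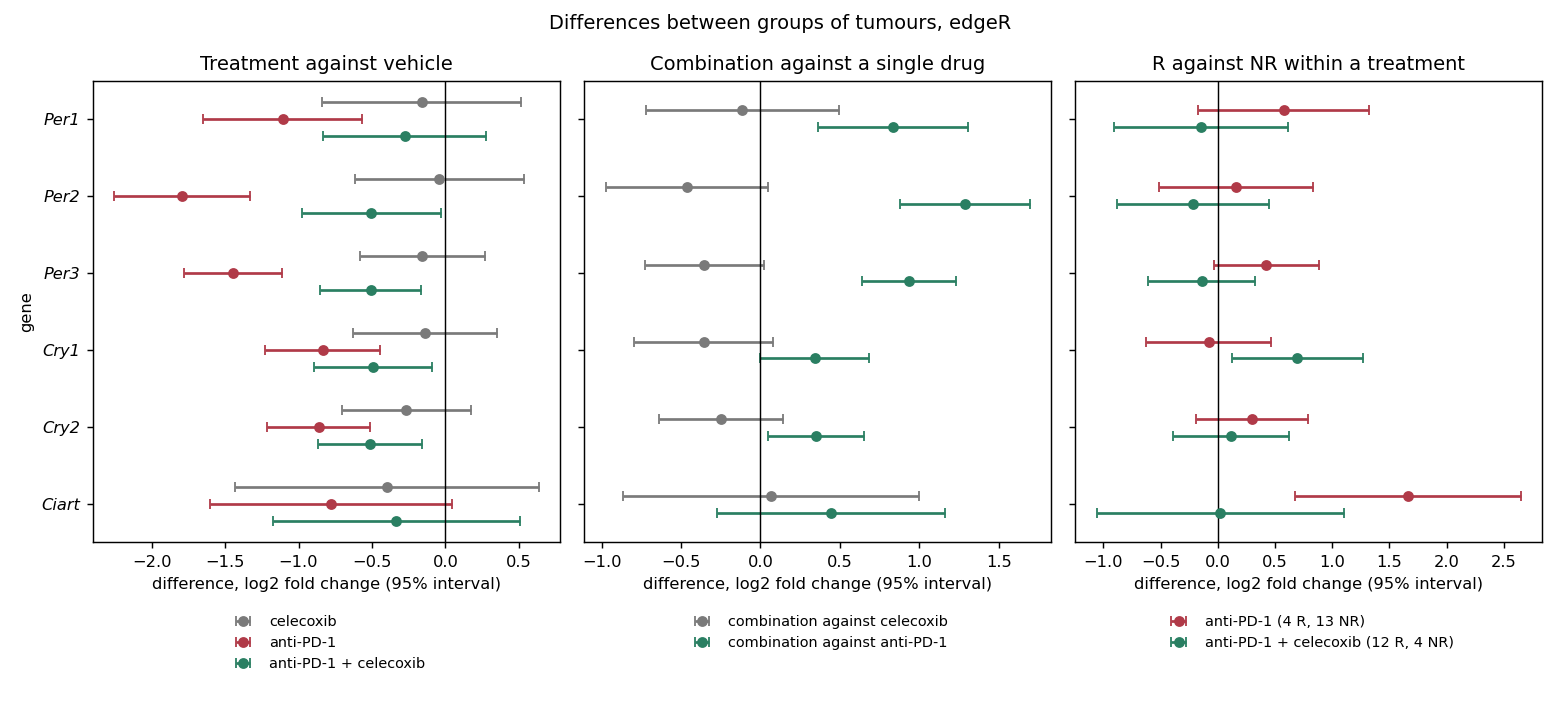
Log2 fold changes of the 6 genes with 95% intervals from edgeR, for each treatment against vehicle (left), the combination against each single drug (middle) and R against NR tumours within a treatment (right). The intervals of anti-PD-1 against vehicle for Per2 and Per3 lie wholly below -1, while those of celecoxib against vehicle include 0 for all 6 genes.

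The response labels divide the anti-PD-1 group into 4 R and 13 NR tumours. Ciart was at 1.46, 3.11, 13.6 and 37.7 CPM in the R tumours and at 2.13 to 9.47 CPM (median 3.39 CPM) in the NR tumours. Both the lowest and the highest Ciart levels of the group were thus R tumours. The fold change of R against NR was 1.66 for Ciart (SE 0.51, p 0.00191, adjusted p 0.659 in edgeR's quasi-likelihood test), and 0.45 without replicate 14, the R tumour low in macrophage markers. Per3 was at 27.1, 32.9, 48.6 and 58.7 CPM in R tumours and 19.7 to 39.6 CPM in NR tumours, a difference of 0.42 (SE 0.24, adjusted p 0.809), or 0.22 without replicate 14. Per2 had 7.68, 15.97, 21.7 and 43.1 CPM in R tumours and 8.19 to 29.5 CPM in NR tumours, so that R tumours again held both ends of the range. The remaining differences were 0.58 for Per1 (SE 0.38), 0.30 for Cry2 (SE 0.25), 0.16 for Per2 (SE 0.34) and -0.08 for Cry1 (SE 0.28). Of the 6 members 0 were called, 1 (Ciart) had an unadjusted p under 0.05, and DESeq2 called 0. In edgeR 0% of 14247 genes were called in the fit with 6 groups, with 923 at an unadjusted p under 0.05. Without replicate 14, Per1 (-0.01), Per2 (-0.39) and Cry2 (-0.10) took the other sign.

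In the combination, 12 R tumours were set against 4 NR tumours. Cry1 was at 7.77, 8.09, 13.4 and 18.2 CPM in the NR tumours and at 11.5 to 37.0 CPM (median 16.2 CPM) in the R tumours. The 2 lowest NR values lay below all R values, but the other NR tumours lay among them. The fold change of R against NR was 0.69 for Cry1 (SE 0.29, p 0.0217, adjusted p 0.499 in edgeR's quasi-likelihood test), and 0.24 without the libraries with other tissue (adjusted p 0.997). Per2 was at 28.2, 28.3, 58.0 and 103 CPM in NR tumours and 16.7 to 66.2 CPM in R tumours, so the highest level of the group was in an NR tumour and the lowest in an R tumour. The other differences were small against their errors: -0.22 for Per2 (SE 0.34), -0.15 for Per1 (SE 0.39), -0.14 for Per3 (SE 0.24), 0.12 for Cry2 (SE 0.26) and 0.02 for Ciart (SE 0.55). Again 0 members were called, 1 (Cry1) had an unadjusted p under 0.05, DESeq2 called 0 members and 17 genes, and edgeR called 0% of all genes, with 1298 at an unadjusted p under 0.05. Without combination replicate 6, the NR tumour at 103 CPM of Per2, the values for Per2 (0.30) and Per3 (0.16) turned positive.

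Whether the R against NR difference itself differed between the 2 treatments was tested as a difference of contrasts, and 0 members and 0% of genes were called by edgeR, with 329 genes at an unadjusted p under 0.05. Ciart had the lowest p (-1.64, SE 0.74, p 0.0327, adjusted p 0.999 in edgeR's quasi-likelihood test), and was at -0.43 without anti-PD-1 replicate 14. DESeq2 called 0 members and 2 genes. Since the label is distributed unequally between treatments, the description of the combination against anti-PD-1 was also made within each label. Among NR tumours (4 against 13) the log2 fold changes were 1.48 for Per2 (SE 0.32), 1.14 for Per3 (SE 0.23), 1.09 for Per1 (SE 0.37), 1.02 for Ciart (SE 0.53), 0.33 for Cry2 (SE 0.25) and -0.23 for Cry1 (SE 0.28). Among R tumours (12 against 4) they were 1.10 for Per2 (SE 0.37), 0.58 for Per3 (SE 0.25), 0.54 for Cry1 (SE 0.29), 0.37 for Per1 (SE 0.40), 0.15 for Cry2 (SE 0.26) and -0.62 for Ciart (SE 0.53). The values of Per1, Per2, Per3 and Cry2 were positive within both labels, and those of Cry1 and Ciart differed in sign between them, again without a test.

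Coherence between the genes was examined within each treatment, so that group differences could not create it. The 15 pairs of genes in 4 treatments gave 60 relations, each with Pearson's r and Spearman's rho of log2 CPM and a two-sided permutation p, exact for 9 and 7 tumours and from 100000 resamples for 17 and 16, adjusted over the 60. In vehicle tumours all 15 pairs were positively correlated, with a median r of 0.70. Under anti-PD-1 all 15 were also positive, with a median of 0.57, and in the combination 13 of 15 were, with a median of 0.50. Celecoxib tumours had 11 of 15 positive pairs and a median of 0.28. Differences between treatments in these medians were not tested.

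After adjustment 8 of 60 Pearson correlations passed the limit of 0.05, and 0 of 60 Spearman correlations did, the lowest adjusted p for rho being 0.0802. On residuals from the muscle list, 2 Spearman correlations passed in vehicle, 1 in celecoxib, 0 in anti-PD-1 and 3 in combination tumours. In vehicle tumours the 3 that passed linked Per2, Per3 and Ciart: r was 0.86 for Per3 with Ciart (rho 0.80), 0.81 for Per2 with Per3 (rho 0.77) and 0.80 for Per2 with Ciart (rho 0.87), each with an adjusted exact permutation p of 0.0421. With celecoxib, Per1 and Cry1 were the pair that passed, at r = 0.93 (rho 0.96, exact permutation p 0.000595, adjusted 0.0179), while r of Ciart was negative with 4 of the other 5 genes, from -0.34 with Cry1 to -0.007 with Cry2. Under anti-PD-1, Cry2 with Ciart (r = 0.70, rho 0.65) and Per2 with Per3 (r = 0.65, rho 0.58) passed, both at an adjusted permutation p of 0.0421. In the combination, Per3 with Cry2 (r = 0.78, rho 0.66, adjusted permutation p 0.0179) and Per2 with Ciart (r = 0.65, rho 0.63, adjusted permutation p 0.0452) passed. Without the 2 tumours farthest from the median of the first gene, these 8 values of r lay between 0.51 for Per2 with Per3 under anti-PD-1 and 0.94 for Per1 with Cry1. The 8 were picked because they passed. Over all 15 pairs the median r without those 2 tumours was 0.31 under anti-PD-1 (from 0.57) and 0.38 in the combination (from 0.50). It was 0.65 in vehicle (from 0.70) and 0.49 in celecoxib tumours (from 0.28).

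The coherence was weaker without the 3 tumours low in macrophage markers. These were singled out after seeing the data and held the highest level of several members. Leaving them out also left fewer tumours, so the number of pairs that passed does not measure coherence alone. Without them 1 of 60 Pearson correlations passed, Per1 with Cry1 under celecoxib, a group that holds none of the 3. The median r became 0.54 in vehicle, 0.41 in anti-PD-1 and 0.36 in combination tumours, where 15, 14 and 13 of 15 pairs were still positive. Per3 with Ciart in vehicle tumours changed from 0.86 to 0.63, Cry2 with Ciart under anti-PD-1 from 0.70 to 0.42, and Per3 with Cry2 in the combination from 0.78 to 0.64. Per2 with Ciart in the combination did not weaken (0.68), but no longer passed (adjusted permutation p 0.145). Tumour by tumour, all 6 genes were above their treatment's median in 2 vehicle tumours, 1 celecoxib, 2 anti-PD-1 and 2 combination tumours, and all 6 were below it in 1, 0, 2 and 2. Among those with all 6 above were vehicle replicate 8 and anti-PD-1 replicate 14, which are 2 of the 3 that stood apart, and combination replicate 15, the other of these, had 5 above.

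**Figure D3:**
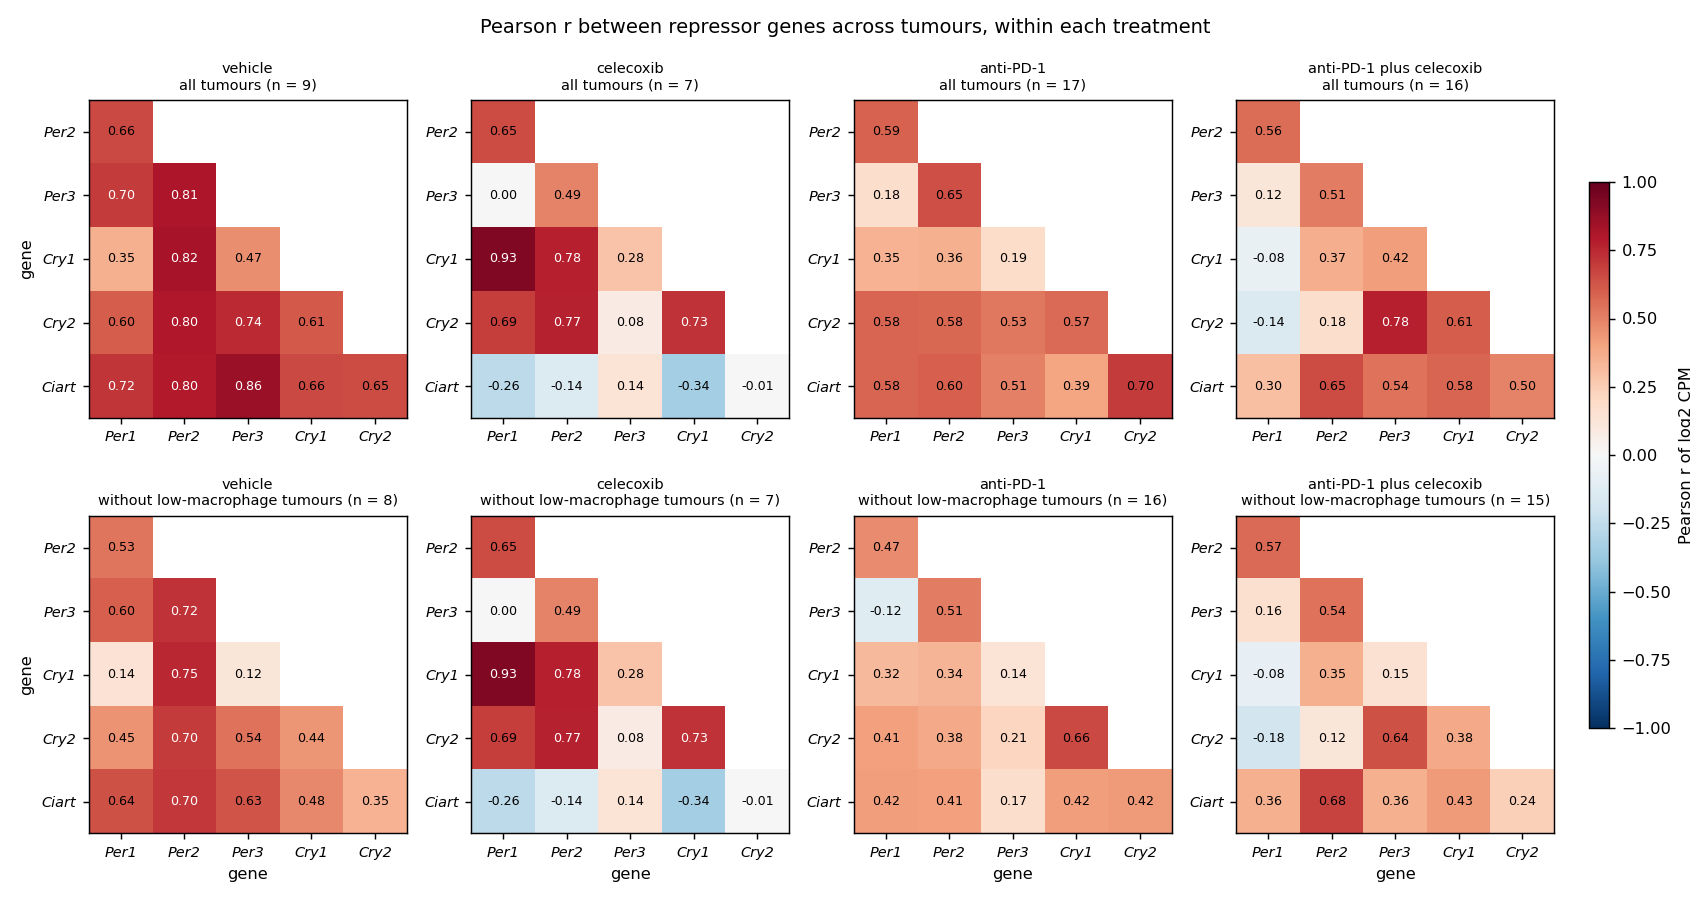
Pearson r of log2 CPM for the 15 pairs of genes within each treatment (columns), in all tumours (top row) and without the 3 tumours low in macrophage markers (bottom row), with red for positive and blue for negative values. Vehicle tumours have positive r for all 15 pairs in both rows, and in the celecoxib panels Ciart is the row with negative values.

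Other genes were ranked by how closely they followed each member across the 49 tumours after the treatment means had been removed, as a description with no p over 11253 genes with a mean of at least 2 CPM. Per2 and Per3 were both closest to Dbp, the clock output factor that binds D-boxes, with r = 0.68 and r = 0.81, and these were 0.62 and 0.75 without the 3 tumours low in macrophage markers. Dbp remained the closest gene to both in that set. The next genes for Per3 were Bhlhe41, a repressor of CLOCK and BMAL1 (0.71, and 0.55 without the 3), and Dvl1, of the Wnt pathway (0.69 and 0.55), and the most negative was Wdfy4 (-0.77 and -0.60). For Per2 they were Jmy (0.60 and 0.52), Bhlhe41 (0.59 and 0.51) and, most negative, Cnn2 (-0.58 and -0.56).

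The closest non-members of Per1 were other genes, although r of Per1 with Per2 was 0.57. Per1 was closest to Ddit4 (0.62, and 0.58 without the 3 tumours), Dusp1 (0.60 and 0.56) and Tsc22d3 (0.59 and 0.64), and most negative with Taf4b (-0.55 and -0.49). Per2 followed Dusp1 and Tsc22d3 less closely, at 0.41 for each. Ddit4, Dusp1 and Tsc22d3 are known to be induced by glucocorticoids, as Per1 is. For other glucocorticoid targets, r with Per1 was 0.57 for Klf9, 0.41 for Sgk1, 0.31 for Fkbp5 and 0.13 for Errfi1. It was 0.06 for the receptor gene Nr3c1, and a glucocorticoid input to Per1 was not tested. The correlation of Per1 with Dbp was 0.29. Ciart was closest to Tspan5 (0.86 and 0.77), Bhlhe40 (0.84 and 0.72) and Bhlhe41 (0.83 and 0.74), the latter 2 encoding the DEC repressors, which like CIART act on E-box transcription, and most negative with Fmnl1 (-0.82 and -0.69). Cry2 was closest to Naa80 (0.73 and 0.57), Abl2 (0.73 and 0.54) and Grhpr (0.73 and 0.53), and Cry1 to Lims2 (0.66 and 0.61), Ccdc47 (0.65 and 0.63) and Naa80 (0.64 and 0.57). Most negative were Tmem86a for Cry2 (-0.73 and -0.55) and Mettl27 for Cry1 (-0.61 and -0.64). The ranks were taken over all 49 tumours and changed in part without the 3. Pgk1 (0.73) was then among the 3 genes closest to Ciart instead of Bhlhe40. Per1 was then closest to Tsc22d3 and Depp1 (0.59), Cry2 to Arhgap10 (0.67) and Cry1 to Mmp23 (0.70). The genes ranked after Dbp changed for Per2 and Per3.

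Marker lists of other cell types moved with some members. With treatment means removed, the mean of the 8 macrophage markers correlated with Ciart at r = -0.71 over 49 tumours and -0.54 over 46, with Per3 at -0.65 and -0.39, and with Cry2 at -0.62 and -0.31. For Per1 the values were -0.17 and 0.04, and for Per2 -0.36 and -0.20. The T cell list gave -0.58 and -0.38 for Per3 and -0.55 and -0.35 for Ciart. Cry1 moved with the adipocyte list (0.41 and 0.46) and against the proliferation list (-0.47 and -0.47). The skeletal muscle list gave 0.38 and 0.32 for Cry1 and 0.35 and 0.23 for Cry2. For the other members it lay between 0.06 for Per1 and 0.24 for Ciart over 49 tumours. The carcinoma epithelium list was positive with all 6 genes, from 0.35 for Per1 to 0.48 for Per2. Vehicle tumours ranged from 5.44 to 7.90 log2 CPM for the macrophage list, celecoxib tumours from 6.71 to 8.04, anti-PD-1 tumours from 5.71 to 8.62 and combination tumours from 5.52 to 8.80. In the same order, the T cell list ran from 0.64 to 3.21, 0.67 to 3.42, -1.17 to 3.90 and -0.48 to 4.81. The part of these lists in the group differences of the 6 genes was not tested. For total counts, r lay between -0.19 for Per2 and 0.05 for Per3.

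**Figure D4:**
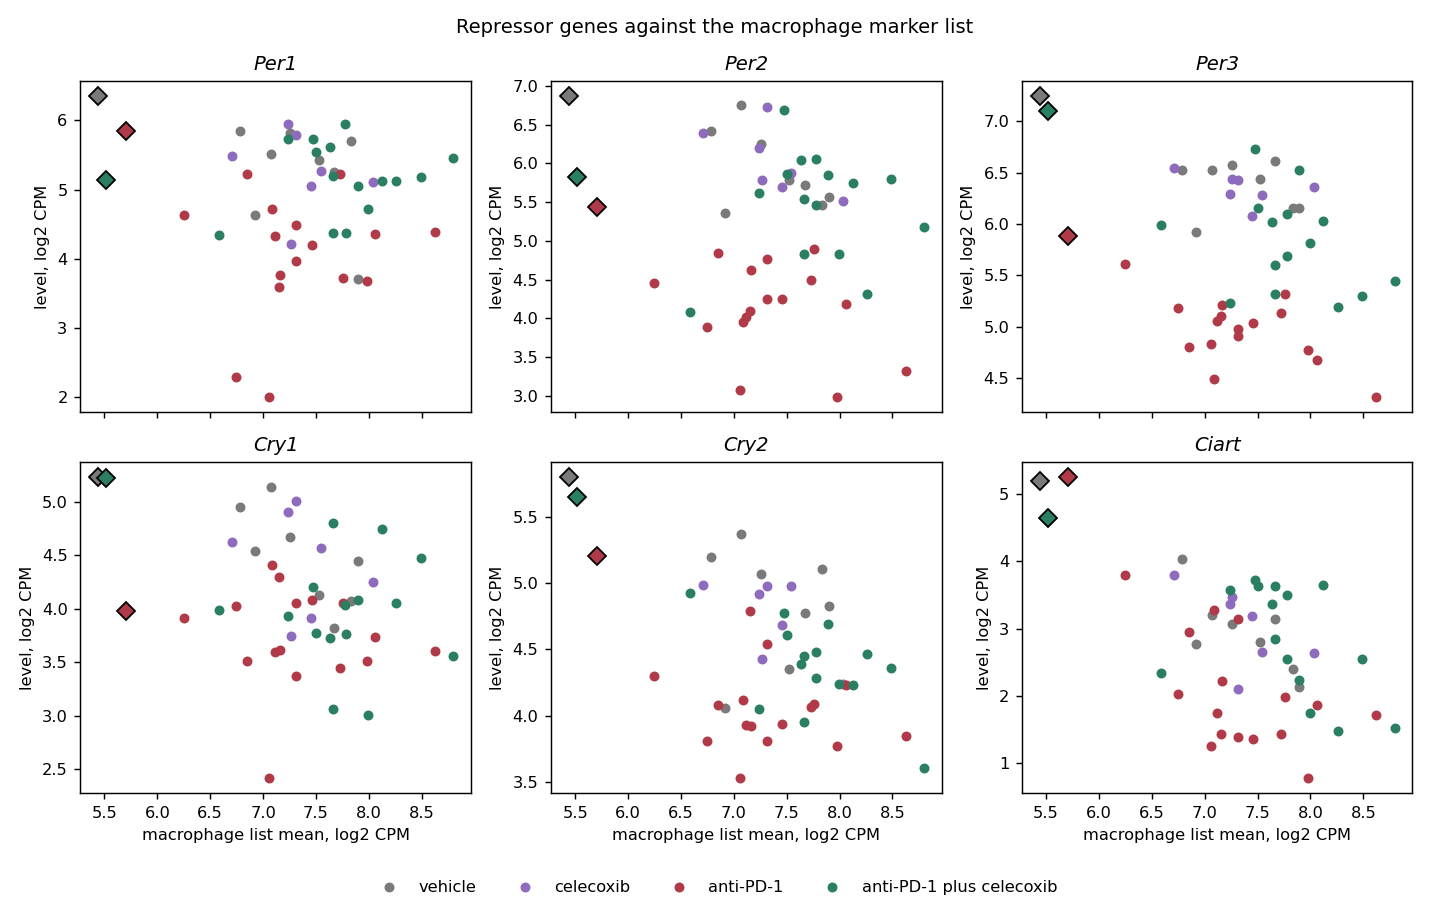
Level of each gene (log2 CPM) against the mean of 8 macrophage markers (log2 CPM), 1 point per tumour, coloured by treatment, with the 3 tumours below 6 log2 CPM drawn as diamonds. Ciart is lower where the list is higher, both over all 49 tumours (r = -0.71 with treatment means removed) and without the 3 diamonds (r = -0.54), while r for Per1 without them was 0.04.

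The rest of the clock was taken from lists put together with these results known. Of the activators, 3 of 4 were tested. Arntl, which encodes BMAL1 and peaks in antiphase to the Per genes, averaged 8.14 ± 3.32 CPM in vehicle tumours (SD, n = 9), 6.78 ± 1.92 CPM in celecoxib tumours (n = 7), 19.5 ± 6.27 CPM in anti-PD-1 tumours (n = 17) and 8.45 ± 3.62 CPM in combination tumours (n = 16). Its fold change of the combination against vehicle was 0.05 (SE 0.22, adjusted p 0.927 in edgeR's quasi-likelihood test), beside -0.50 for Per2. The correlation of Arntl with the members, treatment means removed, ran from -0.10 for Per2 to 0.28 for Ciart, and from -0.30 for Cry2 to 0.08 for Ciart without the 3 tumours low in macrophage markers. Clock, its partner, differed by 0.54 between the combination and vehicle (SE 0.20, adjusted p 0.195), and Arntl2 by 0.30 (SE 0.27).

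Among the D-box factors Dbp, Tef, Hlf and Nfil3, 0 of 4 passed for celecoxib or for the combination against vehicle. Past the limit were 2 of 4, Dbp and Tef, lower with anti-PD-1 than with vehicle, where 0.0874% of all genes were called. Both were also past it in the combination against anti-PD-1, where they were higher and 0.503% of all genes were called. Dbp averaged 98.8 ± 47.02 CPM in vehicle, 80.1 ± 21.2 CPM in celecoxib, 16.4 ± 11.3 CPM in anti-PD-1 and 68.8 ± 38.8 CPM in combination tumours (SD). Of the nuclear receptors of the second clock loop 3 of 4 were tested, and 1, Nr1d2 (REV-ERB beta), was past the limit in both contrasts, at -0.90 (SE 0.13) and 0.65 (SE 0.12). As the lists were put together with both contrasts known, nothing is read from these counts. The DEC repressors Bhlhe40 and Bhlhe41 had 0 of 2 past the limit in any treatment comparison. Of 8 genes for the kinases, ubiquitin ligases and other factors that set PER and CRY stability, 0 were past the limit in any treatment comparison, and their median differences from vehicle were -0.15 with anti-PD-1 and -0.16 in the combination.

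Of the glucocorticoid receptor and its targets, 8 of 8 genes were tested. With anti-PD-1, 6 of 8 had negative differences from vehicle. Past the limit were 2 of 8, where 0.0874% of all genes were called: Tsc22d3 (-1.10, SE 0.22) and Fkbp5 (-0.83, SE 0.15), a co-chaperone of the receptor. The list was put together with these results known, so nothing is read from that count. Zbtb16 (-2.82, SE 0.67) and Dusp1 (-0.60, SE 0.31) were not past the limit. Zbtb16 was at 0.257 to 29.6 CPM in vehicle tumours (median 1.08 CPM) and at 0 to 1.47 CPM in anti-PD-1 tumours (median 0.396 CPM), which overlapped. In the combination the list's median difference from vehicle was -0.43, with 7 of 8 genes negative and 1 called, where 0.0729% of all genes were called. Fkbp5 fell against vehicle by 0.88 (SE 0.15, adjusted p 0.00220 in edgeR's quasi-likelihood test), and Tsc22d3 differed by -0.79 (SE 0.23, adjusted p 0.147), Zbtb16 by -2.36 (SE 0.67, adjusted p 0.147) and Dusp1 by -0.57 (SE 0.31). Fkbp5 was also lower in the combination than with celecoxib (-0.87, SE 0.16, adjusted p 0.00824 in the same test). Both comparisons share tumours with the contrasts known when the list was put together, so nothing is read from these calls. In the comparison of both drugs with the antibody alone, 0 of 8 were past the limit, with -0.05 for Fkbp5 (SE 0.13) and 0.31 for Tsc22d3 (SE 0.19), beside 1.29 for Per2, 0.94 for Per3 and 0.83 for Per1. These comparisons share the combination tumours, and the difference between genes was not tested.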

How the data were processed

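Tumour RNA was made into QuantSeq 3′ FWD libraries, per the labels' protocols. The submitters' processing notes name bcl2fastq, STAR, featureCounts and limma and the builds mm10 and GRCm38. Versions, annotation release and strand setting were not stated there. The deposited values used are whole-number counts per gene, made by the authors and not normalized. The deposited log2 table was not used. Gene IDs were matched to symbols for 37607 of 39179 rows. The members and all lists were chosen with earlier results of these data known. Counts were fitted with edgeR 4.0.16 in R 4.3.3 (filterByExpr, TMM, robust quasi-likelihood test, Benjamini-Hochberg over all genes, limit 0.05), with the 4 treatments (13726 genes) or 6 groups of treatment and response label (14247 genes), always with all 49 libraries. Correlations used log2 CPM (prior count 2), and permutation tests used scipy 1.17.1. The genes named are all 6 members, up to 4 genes of each list, those with the largest difference between anti-PD-1 and vehicle, and for likeness the 3 most positive and the most negative non-member, predicted genes left out. Scripts were tested on simulated data. Library totals of 4251251 to 13671294 set the precision, and 95% intervals come from the edgeR standard errors. The highest Pearson r between 2 libraries was 0.983, and no library was taken as a copy. Alternatives were DESeq2 1.42.0, limma-voom (limma 3.58.1), RLE factors, no low-count filter, a muscle list covariate, removal of 14 libraries with other tissue (list mean over 3 for muscle or 5 for skin or adipocyte), the compared groups alone and leaving out each library. Removal of the 3 libraries with a macrophage mean under 6 was added after seeing the data.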

Additional observations from a re-analysis of the deposited data

How the results depend on the processing

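No paired analysis was possible because the replicate numbers follow accession order within a treatment and pair no tumours. Limits are the unequal numbers of R and NR tumours, the unknown hour of collection and, for Ciart, counts as low as 13. Of the counts of members called under other settings, 61 stayed within 1.5 times and 2 did not. These were 5 members with DESeq2 for anti-PD-1 against vehicle, and 1 for the combination against vehicle without libraries with other tissue. The members were chosen on the first of these contrasts, and the second shares its tumours with contrasts then known, so nothing is read from these counts. Leaving out 1 library gave 0 to 2 members for the combination against vehicle. Of the fold changes under other settings, 349 kept direction and call, 6 passed in addition, 1 no longer passed and 22 took the other sign, none of these 22 past the limit; the cause was not tested.

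Without libraries with other tissue the reversed log2 fold changes were 0.11 for Per2, celecoxib against vehicle; 0.13 for Per1 and -0.21 for Ciart, combination against celecoxib; -0.0554 for Per1 and -0.41 for Per2, R against NR under anti-PD-1; and -0.19 for Cry2 and -0.48 for Ciart, R against NR under the combination. Without the 3 libraries low in macrophage markers they were 0.0945 for Per2 and 0.0853 for Ciart, celecoxib against vehicle, and -0.12 for Ciart, combination against celecoxib. In that setting R against NR under anti-PD-1 gave -0.00296 for Per1, -0.38 for Per2 and -0.0899 for Cry2, under the combination -0.0133 for Cry2 and -0.20 for Ciart, and the difference of these contrasts 0.17 for Per2 and 0.0766 for Cry2. The muscle covariate gave -0.0284 for Ciart, combination against celecoxib, and -0.0679 for Cry2 and -0.27 for Ciart, R against NR under the combination. With limma-voom Ciart was -0.16, combination against celecoxib, and Per2 -0.0777, R against NR under anti-PD-1.

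Leaving out 1 library at a time, values that changed sign ranged, for celecoxib against vehicle, from -0.18 to 0.0947 (Per2) and -0.53 to 0.0852 (Ciart), for the combination against vehicle from -0.51 to 0.15 (Ciart), and against celecoxib from -0.24 to 0.0144 (Per1) and -0.12 to 0.20 (Ciart). Under anti-PD-1, R against NR ranged from -0.00594 to 0.85 (Per1), -0.39 to 0.47 (Per2), -0.15 to 0.0182 (Cry1) and -0.10 to 0.49 (Cry2). Under the combination the ranges were -0.30 to 0.0128 (Per1), -0.43 to 0.30 (Per2), -0.33 to 0.16 (Per3), -0.0404 to 0.26 (Cry2) and -0.26 to 0.28 (Ciart). The difference of these contrasts ranged from -0.69 to 0.17 (Per2) and -0.37 to 0.21 (Cry2). Pairs of genes that passed numbered 5 instead of 3 in vehicle tumours with residuals on the muscle list, where 2, 1, 0 and 3 Spearman correlations passed in vehicle, celecoxib, anti-PD-1 and combination tumours. They numbered 0 in vehicle, anti-PD-1 and combination tumours both without libraries with other tissue and without the 3 libraries low in macrophage markers, where fewer tumours entered; celecoxib tumours without other tissue numbered under 6 and gave no value.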
